A study of Mus musculus with 6 samples.

Results

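The nuclear genes of the mitochondrial ribosome were followed in the gastrocnemius, the main calf muscle, of restrained and control mice. The set holds every protein-coding gene of the deposited table whose symbol is Mrpl or Mrps followed by a number and, in some, a letter. It comprises 78 of the 46504 features in the table, 49 of them Mrpl and 29 of them Mrps genes. These are called large and small subunit genes by symbol, though not every Mrps protein sits in the small subunit. Genes entered the set by symbol and biotype alone, but the set was chosen with earlier results of these data known. PolyA RNA was sequenced in 3 libraries of wild type mice restrained every 4 days, each time for 3 h inside a 50 mL tube, and in 3 libraries of wild type control mice, and both groups are labelled day 4. Total read counts ran from 44290720 to 44973655 in restraint libraries and from 44814050 to 51125779 in control libraries. Whether each library stands for a separate mouse is not in the labels, so p-values below rest on a spread between libraries that could be technical.

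Mitochondria translate their own small genome on a ribosome that is built from RNA encoded in mitochondrial DNA and from proteins encoded in the nucleus, made in the cytosol and imported. The 2 subunits of this ribosome divide the work as in bacteria: the small subunit holds the messenger RNA and reads its codons, and the large subunit joins the amino acids and leads the new chain out through a tunnel. Its products in mammals are core subunits of the respiratory chain and of ATP synthase, which are abundant in muscle, and many of its proteins have no counterpart in bacteria.

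Restraint and control libraries held nearly the same summed level of this set, 3112 ± 184 against 3147 ± 397 CPM (read counts per library size, scaled with TMM factors; mean ± SD, n = 3 each), and no gene of it passed the test for a difference by edgeR. The log2 fold changes, restraint over control, ran from -0.38 for Mrpl19 to 0.40 for Mrps18b. The 2 genes with the largest positive values, Mrps18b and Mrpl53, and the genes with the largest negative values, Mrpl19 and a run of other large subunit genes, are described singly below. In bulk tissue such as this, fewer cells of a type and less RNA per cell cannot be told apart.

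Promoters were read to show the sequence in front of the genes on which the description turns. RefSeq promoter entries of 300 bases (250 before and 50 after the gene start, GRCm38.p6) matched 69 of the 78 genes with 75 entries, 3 of the genes having more than 1, and 5 are given: the 2 genes with the largest positive fold change, the 2 with the largest negative one that have an entry, and the gene with the highest level. Each reads 5′ to 3′ on the gene's own strand, and capitals mark matches, on either strand, to the letters searched for NRF1 (GCGCA, any base, then GCGC), ETS-type factors (CCGGAAG) and YY1 (AAGATGGCG), all of them regulators known from promoters of nuclear genes for mitochondrial proteins. The regions are chr17:35916391-35916690 on the minus strand for Mrps18b, chr6:83108858-83109157 on the plus strand for Mrpl53, chr13:73330759-73331058 on the plus strand for Mrpl36, chr3:32736706-32737005 on the minus strand for Mrpl47 and chr10:95501900-95502199 on the minus strand for Mrpl42.
Mrps18b: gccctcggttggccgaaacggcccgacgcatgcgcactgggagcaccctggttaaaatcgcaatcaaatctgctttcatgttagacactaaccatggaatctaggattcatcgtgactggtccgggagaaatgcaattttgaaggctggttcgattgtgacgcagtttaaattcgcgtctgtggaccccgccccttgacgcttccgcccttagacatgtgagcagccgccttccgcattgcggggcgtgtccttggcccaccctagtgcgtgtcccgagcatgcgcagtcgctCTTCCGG
Mrpl53: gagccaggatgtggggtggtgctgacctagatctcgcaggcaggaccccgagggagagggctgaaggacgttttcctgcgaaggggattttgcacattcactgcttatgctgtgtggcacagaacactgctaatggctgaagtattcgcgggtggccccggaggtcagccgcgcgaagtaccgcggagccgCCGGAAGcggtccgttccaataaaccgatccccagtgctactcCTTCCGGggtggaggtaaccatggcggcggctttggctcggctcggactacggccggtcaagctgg
Mrpl36: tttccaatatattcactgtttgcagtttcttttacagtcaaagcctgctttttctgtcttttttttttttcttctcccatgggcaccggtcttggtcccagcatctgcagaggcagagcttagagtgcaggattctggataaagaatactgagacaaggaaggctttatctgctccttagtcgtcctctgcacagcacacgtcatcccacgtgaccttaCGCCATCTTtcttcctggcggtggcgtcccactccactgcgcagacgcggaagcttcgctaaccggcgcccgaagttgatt
Mrpl47: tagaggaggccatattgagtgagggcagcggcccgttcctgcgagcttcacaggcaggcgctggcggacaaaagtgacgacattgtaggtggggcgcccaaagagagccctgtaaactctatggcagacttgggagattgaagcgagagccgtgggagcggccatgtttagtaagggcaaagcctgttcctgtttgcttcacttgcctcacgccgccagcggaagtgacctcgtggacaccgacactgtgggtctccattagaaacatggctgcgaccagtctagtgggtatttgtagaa
Mrpl42: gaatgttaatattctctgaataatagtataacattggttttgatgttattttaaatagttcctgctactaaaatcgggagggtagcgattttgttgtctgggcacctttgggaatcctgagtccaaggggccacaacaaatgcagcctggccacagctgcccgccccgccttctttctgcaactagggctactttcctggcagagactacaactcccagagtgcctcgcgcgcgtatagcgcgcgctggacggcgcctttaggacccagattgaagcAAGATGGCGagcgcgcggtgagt

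The capitals stand at the very end of the Mrps18b window, as a match of the ETS letters read on the opposite strand, and at 2 places in Mrpl53. Mrpl36 and Mrpl42 each hold 1 match of the YY1 letters, in opposite directions. Mrpl47 holds no match of these 3 motifs, which says only that these letters are not in this window. The ETS letters were in the promoters of Mrps18b and Mrpl53 and in none of the other 3, of which Mrpl42 also has a positive fold change.

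Of the 69 genes, 26 (37.7%) held the ETS letters in at least 1 entry, against 19.1% of 10365 other tested protein-coding genes and 9.93% of all 27025 genes in the RefSeq table, counted in the same way. The NRF1 letters were found in 13 genes (18.8%), against 11.1% and 5.19% in the same backgrounds, and the YY1 letters in 8 (11.6%), against 3.35% and 1.64%. GGGCGG, the letters for SP1, were in 34 (49.3%), against 68.0% and 38.2%, and TCAAGGTCA, the letters for the oestrogen-related receptors, were in none, against 0.338% and 0.466%. Both strands were searched for each motif, and an ETS and an SP1 match overlapped in 2 genes. Of these 5 motifs, 3 were thus found in a larger share of the set than of the other tested genes, and SP1 in a smaller one. Over the whole set the fold changes lay close together with and without a motif: the median log2 fold change was -0.01 with and -0.03 without the ETS letters, and -0.0002 with and -0.03 without the NRF1 letters. A match is a description of the sequence and not a shown binding site.

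All 78 genes were expressed well enough to be tested, so the filter on low counts removed none. Their read counts ran from 371 (Mrps34 in control 3) to 10333 (Mrpl42 in restraint 1) per library, so counting error weighs more in the genes with few reads. Levels are compared between genes in the authors' TPM, which correct for length. The median gene stood at 43.7 TPM as a mean over the 6 libraries, above 87.9% of the 13086 protein-coding genes tested, whose own median was 4.75 TPM. The subunits had the same median, 43.7 TPM for the 49 large and 43.8 TPM for the 29 small subunit genes. From the lowest to the highest gene the TPM spanned 109-fold, although most of these proteins, Mrpl12 apart, are known to be present in single copy in the assembled ribosome. The span depends on the length used. The length implied by the authors' counts and FPKM was 5609 bases for Mrpl19, the lowest, and 779 bases for Mrpl42, the highest. In some genes it lay far from the longest protein-coding transcript in GENCODE, as in Mrps10 with 4265 against 1113 bases.

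Mrpl42, a large subunit protein found in mitochondria and not in bacteria, had the highest level of all, 569 ± 6.23 TPM in restraint and 512 ± 9.81 TPM in control (mean ± SD, n = 3 each). Its value in restraint 1, 2 and 3 was 576, 564 and 567 TPM, and in control 1, 2 and 3 it was 521, 512 and 502 TPM. The groups did not overlap on this scale. They did in CPM, where restraint libraries held 232, 208 and 235 and control libraries 209, 237 and 179. The log2 fold change on counts was 0.11 ± 0.12 (SE), with an edgeR adjusted p of 0.737, so the difference in Mrpl42 did not exceed the spread between libraries in that test.

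Mrps21, the homologue of bacterial protein S21, came next with 350 ± 22.8 TPM in restraint and 347 ± 26.7 TPM in control. Below it stood 3 large subunit genes: Mrpl33 with 182 ± 9.81 TPM in restraint and 183 ± 37.8 TPM in control, Mrpl30 with 175 ± 13.9 and 168 ± 18.2 TPM, and Mrpl12 with 166 ± 15.2 and 164 ± 5.47 TPM, in the same order of groups. Mrpl33 and Mrpl30 are homologues of bacterial L33 and L30, and Mrpl12 forms the flexible stalk that recruits translation factors. Neighbours in rank among these 3 differed by less than the larger of their SDs. The small subunit genes next to Mrps21 were Mrps36, Mrps18a and Mrps15, at 106 ± 10.1, 105 ± 9.03 and 99.5 ± 6.04 TPM in restraint and 110 ± 9.41, 103 ± 4.56 and 106 ± 7.99 TPM in control, with each difference between the groups smaller than the larger of the 2 SDs. Mrps36 is also known as a subunit of the 2-oxoglutarate dehydrogenase complex of the citric acid cycle, and Mrps15 is the homologue of bacterial S15.

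The lowest TPM belonged to Mrpl19, Mrpl17 and Mrpl3 in the large subunit and to Mrps25, Mrps10 and Mrps2 in the small one. Mrpl19, the homologue of bacterial L19, had 4.35 ± 0.401 TPM in restraint and 5.57 ± 0.703 TPM in control. Mrpl17, which lines the exit of the tunnel, had 9.60 ± 0.326 TPM in restraint and 8.96 ± 0.399 TPM in control, and Mrpl3, which sits close to the site of peptide bond formation, had 9.87 ± 0.979 and 12.2 ± 2.66 TPM. Mrps25 had 10.1 ± 0.531 TPM in restraint and 11.1 ± 0.714 TPM in control, Mrps10, a protein of the head of the subunit, had 12.4 ± 0.805 and 11.6 ± 0.287 TPM, and Mrps2 had 13.9 ± 1.2 and 13.7 ± 1.52 TPM. Only Mrpl19 among these 6 had groups that did not overlap both in TPM and in CPM. Over the 6 libraries together, the coefficient of variation of TPM had a median of 8.54% in the set, from 2.0% to 20.5%, against a median of 14.4% for the 6256 tested protein-coding genes whose mean TPM lay within the range of the set.

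**Figure D1:**
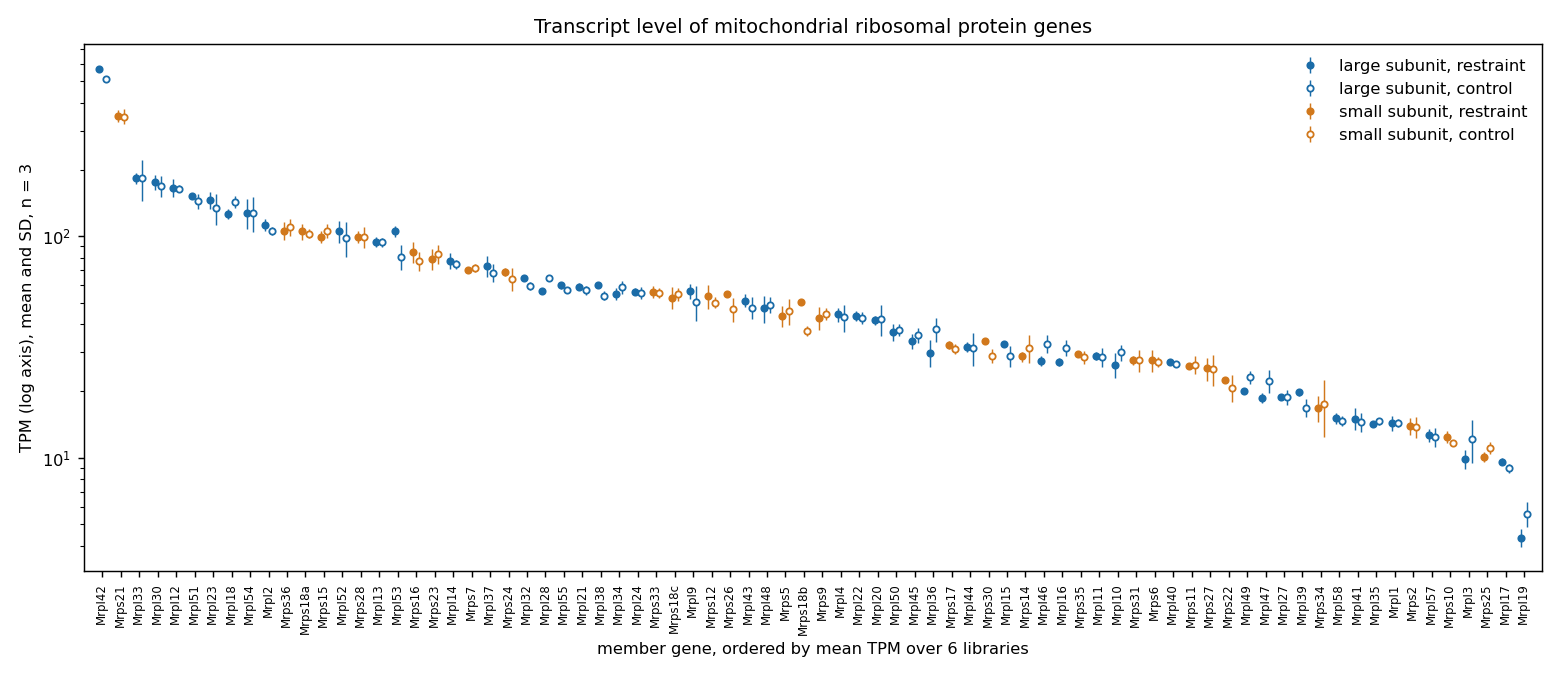
Mean TPM of each of the 78 genes on a log axis, in order of level, with restraint as filled and control as open symbols and error bars of 1 SD over 3 libraries. Mrpl42 stands highest and Mrpl19 lowest, and the symbols of the groups lie on or beside each other along the whole order.

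The libraries did not carry the set evenly within a group, and this is given before the comparison because single libraries set its sign. Summed over the 78 genes, the CPM were 3175, 2905 and 3256 in restraint 1, 2 and 3 and 3196, 3518 and 2728 in control 1, 2 and 3. Control 2 held the highest value of 52 genes and control 3 the lowest value of 45, while restraint 2 held the lowest of 15. In control 2, 68 of the 78 genes stood above their own mean over the libraries, against 10 in control 3 and 12 in restraint 2. The spread was wider in the control group, whose libraries stood at both ends.

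Gene length went along with this spread. The length implied by the authors' counts and FPKM divided the set into 39 shorter genes (460 to 1263 bases) and 39 longer ones (1356 to 7501 bases). The shorter genes deviated from their own mean log2 CPM by a median of 0.03, -0.18 and 0.13 in restraint 1, 2 and 3 and by 0.06, 0.24 and -0.26 in control 1, 2 and 3. The longer genes deviated by 0.005, -0.05 and 0.03 in restraint and by 0.03, 0.13 and -0.09 in control, in the same directions and by less. In control 3, Pearson's r between deviation and log2 length was 0.43 across the 78 genes and 0.38 across the other tested protein-coding genes, so the tilt was not limited to the set. The RNA encoded by mitochondrial DNA moved with it: its summed CPM were 151319, 127320 and 155006 in restraint and 152646, 210731 and 131668 in control. The part of length, of mitochondrial RNA content or of RNA quality in the differences below was not tested.

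The contrast between the extreme control libraries, control 3 over control 2, and that between the extreme restraint libraries, restraint 2 over restraint 3, share no library. Across the 78 genes, which are not independent replicates, the log2 values of the 2 contrasts had a Pearson r of 0.58. Mrpl33, a short gene, had -0.97 and -0.32, and Mrpl52, a large subunit gene specific to mitochondria that was chosen after its values were seen, had -0.90 and -0.49. The same genes thus tended to stand low in control 3 and in restraint 2.

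**Figure D2:**
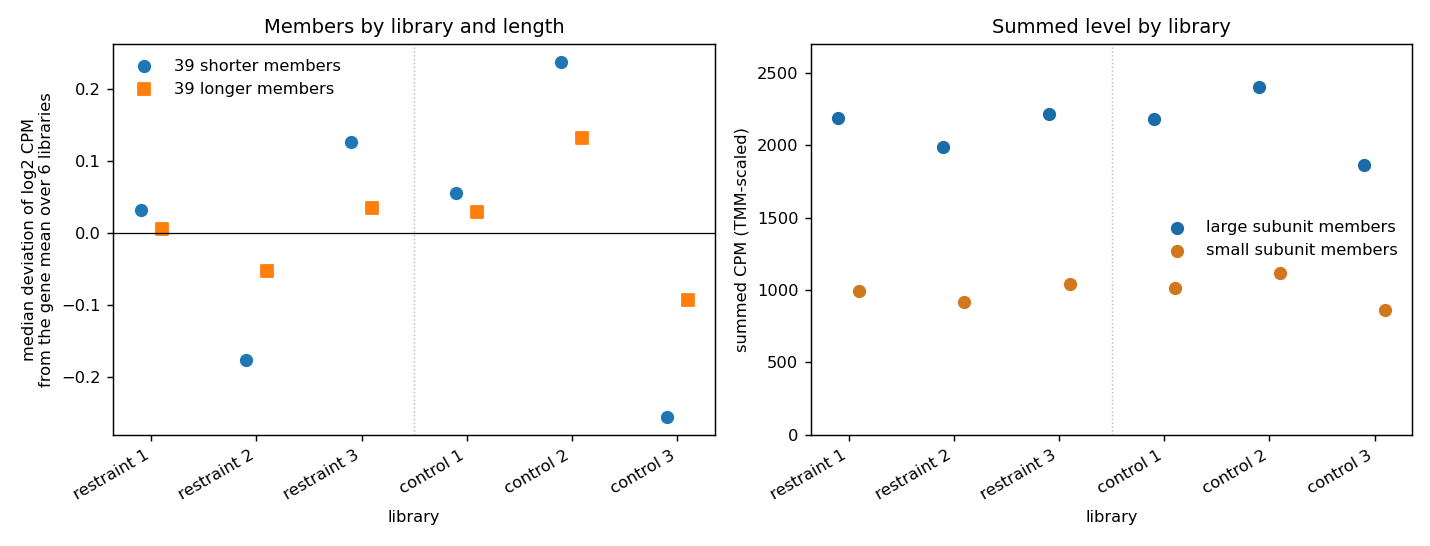
Left, median deviation of log2 CPM from each gene's own mean in every library, for the 39 shorter and the 39 longer genes. Right, CPM summed over large and over small subunit genes in every library. Control 2 stands highest and control 3 lowest in both panels, with the restraint libraries between them.

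No gene of the set was called. EdgeR's quasi-likelihood test with Benjamini-Hochberg adjustment over all 15448 tested features gave 0 of 78 at an adjusted p under 0.05, where it called 1.83% of all features, 1.26% as higher and 0.563% as lower in restraint. Limma voom and edgeR with the replicate number as a block also gave 0 of 78, with backgrounds of 1.36% and 0.388%, and DESeq2 gave 1, Mrps18b, with a background of 5.34%. At an unadjusted p under 0.05, 3 genes stood higher and 4 lower in restraint, which is 3.85% and 5.13% of the set, below the 7.98% and 7.63% of all tested features that did so. On the scale of CPM, restraint and control values did not overlap for 5 genes with higher and 7 with lower values in restraint, or 6.41% and 8.97% of the set, against 10.6% and 11.1% of all tested features. On the scale of TPM they did not overlap for 10 genes with higher and 7 with lower values, or 12.8% and 8.97% of the set, against 9.19% and 6.69% of all tested features. Calls, and groups separated on CPM, were thus no more frequent here than among all features. The shares separated on TPM lay a little above those of all features, and whether they differ was not tested.

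The fold changes were small and closely bounded. None of the 78 exceeded 0.5 in either direction on the log2 scale, against 16.0% of all tested features and 6.62% of the 6256 protein-coding genes in the same range of TPM. For 64 of the 78 (82.1%) the whole 95% interval lay between -0.5 and 0.5, against 64.8% of those 6256 genes, and for all 78 it lay between -1 and 1. The median SE was 0.124. A change of more than 2-fold thus lay outside every interval.

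Both subunits had a median log2 fold change close to that of all features, -0.03 for the large and -0.02 for the small subunit genes against -0.01 over all 15448 tested features, and both medians were positive on the authors' TPM (0.02 and 0.01, against 0.03 for the features in that fit). Negative values were found in 31 of 49 large (63.3%) and in 19 of 29 small subunit genes (65.5%), against 50.9% of all tested features. Of the 6256 protein-coding genes in the same range of TPM, 45.2% had a negative value, and their median was 0.02. The set thus lay further from genes of like level than from all features, and this difference was not tested. The values of the set rest on single libraries. The median over the 78 genes was -0.03 with all libraries, 0.09 without control 2, 0.04 without restraint 2 and -0.13 without control 3. The summed CPM had a ratio of restraint over control of 0.989, and the summed TPM averaged 5104 ± 75.7 in restraint and 4971 ± 173 in control, a ratio of 1.03. The ratio of large to small subunit TPM was 1.98, 1.97 and 1.93 in restraint libraries and 1.93, 1.95 and 1.92 in control libraries, so the balance of the subunits lay within a narrow band in every library.

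**Figure D3:**
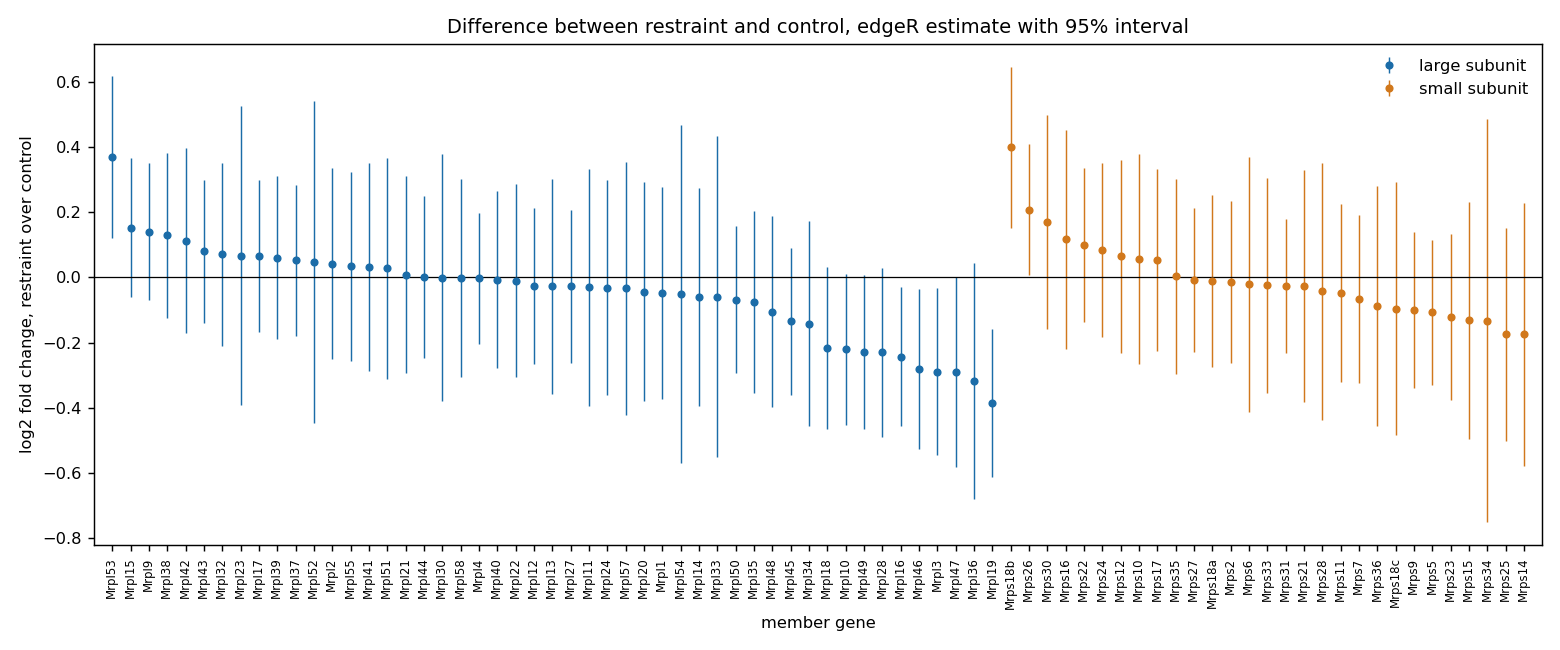
Log2 fold change of each of the 78 genes, restraint over control, with its 95% interval from edgeR. Large subunit genes come first and small subunit genes after them, each in falling order of the value. The values run from -0.38 (Mrpl19) to 0.40 (Mrps18b), and none passed an adjusted p of 0.05.

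Mrps18b encodes 1 of 3 mammalian paralogues of bacterial protein S18, all of them parts of the mitochondrial ribosome, and lies on chromosome 17 from 35910380 to 35916440 (gene 66973, minus strand, GRCm38.p6). Its level was 32.1, 30.8 and 33.2 CPM in restraint libraries and 25.3, 26.3 and 21.3 CPM in control libraries. Every restraint library stood above every control library, in TPM as well. The log2 fold change was 0.40 ± 0.11, with an edgeR p of 0.00544 and an adjusted p of 0.119. DESeq2 gave an adjusted p of 0.0442, the lowest of a range up to 0.345 over 18 alternative fits, so the call rests on that tool. The gene overlaps Gm16279 on the opposite strand, and with the use of strand in counting not given in the sources used here, reads of such pairs could not be told apart.

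The values of the other S18 paralogues lay nearer 0. Mrps18a, which despite its name sits in the large subunit, had 47.7, 51.7 and 55.9 CPM in restraint and 49.5, 59.1 and 48.0 CPM in control, a log2 fold change of -0.01 ± 0.12. Mrps18c, the paralogue closest to the place of the bacterial protein, had 17.6, 13.6 and 19.2 CPM in restraint and 18.5, 21 and 14.5 CPM in control, with -0.10 ± 0.17. The groups overlapped for both. Whether the 3 paralogues differ from each other in their response was not tested.

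Mrpl53, a protein specific to mitochondria at the base of the stalk, lies on chromosome 6 from 83109108 to 83109932 (gene 68499). The gene overlaps Ccdc142os on the opposite strand. Mrpl53 had 38.7, 32.8 and 41.4 CPM in restraint and 28.9, 29.3 and 29.1 CPM in control. All restraint values were above the control values, which were close to each other. The log2 fold change was 0.37 ± 0.11, and its edgeR adjusted p of 0.148 ran from 0.0662 to 0.421 over the alternative fits. Of the 5 genes of the stalk the other 4 had negative values, among them Mrpl12 with -0.03 ± 0.11, Mrpl10 with -0.22 ± 0.10 and, chosen after its values were seen, Mrpl54 with -0.05 ± 0.23. Mrpl10, which anchors Mrpl12 to the ribosome, had 26.2, 25.9 and 22.6 CPM in restraint and 29.0, 30.5 and 27.6 CPM in control. Its groups did not overlap in CPM but did in TPM, and the edgeR adjusted p was 0.349. Mrpl12 had 121, 124 and 116 CPM in restraint and 123, 134 and 110 CPM in control, with overlap.

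Mrps26, a small subunit protein specific to mitochondria (chromosome 2 from 130563757 to 130565394), had 30.1, 29.0 and 31.0 CPM in restraint and 26.0, 26.1 and 25.8 CPM in control. The groups were apart and both were narrow, and this gene had the smallest SE of the set. The log2 fold change of 0.21 ± 0.09 had an unadjusted edgeR p of 0.0443 and an adjusted p of 0.306. Mrps30, named for the small and sited in the large subunit, had 30.4, 28.7 and 31.4 CPM in restraint and 27.4, 31.8 and 21.3 CPM in control, with 0.17 ± 0.14. Its groups overlapped through control 2.

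Mrpl15 and Mrpl9 complete the 6 largest positive values. Mrpl15, the homologue of bacterial L15, had 79.8, 72.2 and 79.8 CPM in restraint and 67.7, 72.1 and 68.6 CPM in control, which leaves restraint 2 and control 2 almost level, with 0.15 ± 0.09. Mrpl9, the homologue of bacterial L9, had 49.7, 52.0 and 52.0 CPM in restraint and 47.5, 43.5 and 48.3 CPM in control, with 0.14 ± 0.09. The groups did not overlap in CPM for either gene, but they did in TPM for both. Neither gene passed the test, with edgeR adjusted p of 0.495 and 0.529.

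Mrpl19 had the lowest TPM and the largest negative fold change of the set. It lies on chromosome 6 from 81957826 to 81965949 (gene 56284, minus strand). Its level was 12.9, 12.5 and 11.7 CPM in restraint libraries and 15.6, 16.5 and 16.2 CPM in control libraries. The groups did not overlap, and the control libraries, which stood apart in their sums, lay within 1 CPM of each other here. The log2 fold change was -0.38 ± 0.10, with an edgeR p of 0.00421 and an adjusted p of 0.106, which ran from 0.0600 to 0.539 over the alternative fits. The gene overlaps Gcfc2 on the opposite strand.

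The other large negative values belonged to large subunit genes as well. Mrpl3 had 28.1, 27.7 and 25.5 CPM in restraint and 36.3, 28.9 and 34.1 CPM in control, with -0.29 ± 0.11. Mrpl46, a protein of the central protuberance that faces the small subunit, had 17.2, 14.3 and 16.4 CPM in restraint and 19.3, 20.1 and 18.8 CPM in control, with -0.28 ± 0.11. Mrpl16, the homologue of bacterial L16, had 41.6, 38.4 and 40.3 CPM in restraint and 48.5, 49.4 and 44.6 CPM in control, with -0.24 ± 0.09. In these 3 genes every restraint library stood below every control library in CPM, with edgeR adjusted p of 0.261, 0.253 and 0.255. In TPM the groups overlapped for Mrpl3. On the opposite strand, Mrpl3 overlaps Gm47106 and Mrpl46 overlaps Mrps11, a gene of the small subunit, while Mrpl16 overlaps no gene there.

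Mrpl47, the homologue of bacterial L29 at the rim of the exit tunnel, had 10.1, 8.23 and 9.67 CPM in restraint and 10.6, 12.3 and 11.4 CPM in control, without overlap, with -0.29 ± 0.13 and an edgeR adjusted p of 0.323. Mrpl36, the homologue of the very small bacterial protein L36, had 16.0, 14.9 and 19.4 CPM in restraint and 23.4, 22.8 and 16.6 CPM in control, and here control 3 fell among the restraint values. Its log2 fold change was -0.32 ± 0.16, with an edgeR adjusted p of 0.389. Mrpl49 was chosen after its values were seen because it completes the 7 genes with separated lower values in CPM. It had 19.9, 18.7 and 20.4 CPM in restraint and 24.0, 24.4 and 20.8 CPM in control, with -0.23 ± 0.10. All 7 were large subunit genes, 14.3% of 49, against 0 of 29 small subunit genes, and the background for such a separation was 11.1%. In TPM the 7 genes with separated lower values were Mrpl16, Mrpl18, Mrpl19, Mrpl28, Mrpl46, Mrpl47 and Mrpl49, without Mrpl3 and Mrpl10.

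**Figure D4:**
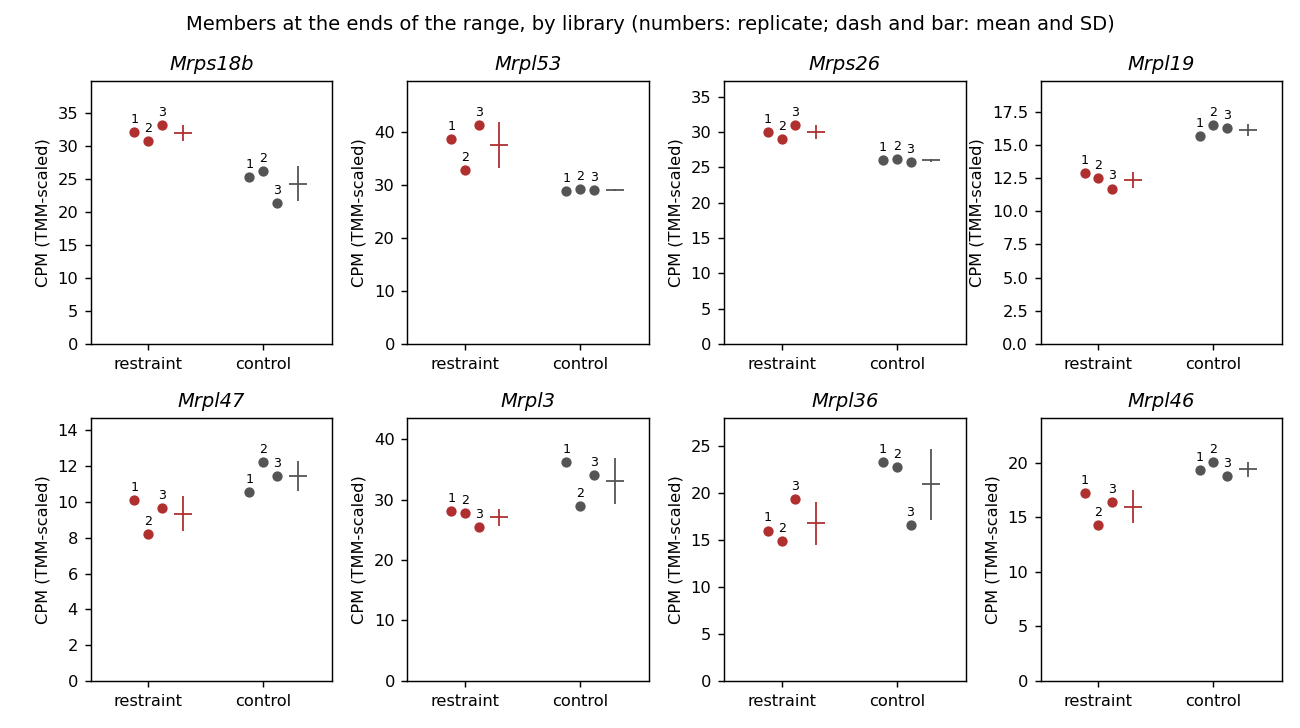
CPM in each library of 8 genes described above, chosen after their values were seen, restraint on the left and control on the right of each panel, each point being 1 library. In Mrps18b, Mrpl53, Mrps26, Mrpl19, Mrpl47, Mrpl3 and Mrpl46 the groups do not overlap, and in Mrpl36 they do.

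Of the genes chosen for their role, Mrpl45, Mrpl58 and Mrps12 remain to be described. Mrpl45, which holds the ribosome to the inner membrane at the tunnel exit, had 48.7, 45.3 and 47.1 CPM in restraint and 54.0, 53.9 and 46.9 CPM in control, with -0.13 ± 0.10. Mrpl58 is a release-type peptidyl-tRNA hydrolase that became part of the large subunit. It had 24.0, 19.8 and 22.6 CPM in restraint and 23.1, 24.8 and 18.6 CPM in control, with a value of -0.002 ± 0.13. Mrps12, a protein of the decoding centre, had 19.9, 23.3 and 24.3 CPM in restraint and 22.6, 23.6 and 18.3 CPM in control, with 0.06 ± 0.13. In CPM the groups overlapped for all 3, and so they did for the genes at the ends of the order of levels other than Mrpl19 and Mrpl3: their log2 fold changes were -0.06 ± 0.22 for Mrpl33, -0.0002 ± 0.17 for Mrpl30, 0.07 ± 0.10 for Mrpl17, -0.03 ± 0.16 for Mrps21, -0.09 ± 0.16 for Mrps36, -0.13 ± 0.16 for Mrps15, -0.17 ± 0.14 for Mrps25, 0.06 ± 0.14 for Mrps10 and -0.01 ± 0.11 for Mrps2.

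The set was also divided by where the proteins sit and where they come from, with no called gene in any group by edgeR. Of 30 large subunit genes with a bacterial homologue 22 had a negative value (median -0.03), and of 19 that are specific to mitochondria 9 did (median 0.001). In the small subunit the counts were 11 of 16 with a homologue (median -0.03) and 6 of 10 specific to mitochondria (median -0.02). The exit tunnel group had 4 negative values of 7, the central protuberance 5 of 7 and the head of the small subunit 5 of 8, with medians between -0.01 and -0.03. With Mrps18a and Mrps30 counted as large and Mrps36 left out, the medians were -0.03 for 51 large and -0.03 for 26 small subunit genes.

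The genes lie on 17 chromosomes, 11 of them on chromosome 11. In the GENCODE M21 annotation of the same build, gene starts were paired with the starts of protein-coding neighbours transcribed in the other direction. The 2 starts had to lie within 1000 bases, with an overlap of at most 100 bases. Mrpl46 and Mrps11, which overlap on opposite strands, did not form a pair by this rule. Such a neighbour was found for 19 of the 78 (24.4%), against 10.5% of 12889 tested protein-coding genes. Of these neighbours 17 were tested, their edgeR adjusted p were 0.568 or above, and 8 of the 17 had the same sign of fold change as their partner in the set. Mrps18b starts 45 bases from Ppp1r10, a regulator of a protein phosphatase, whose log2 fold change was -0.12 ± 0.14. Mrpl36 starts 29 bases from Ndufs6, a subunit of respiratory complex I, with -0.03 ± 0.14, and Mrpl49 starts 59 bases from Fau, a gene of the cytosolic ribosome, with 0.20 ± 0.17. In all, 36 of the 78 overlap a gene on the opposite strand. Besides those named above, these include Mrpl47 (Actl6a and Ndufb5), Mrpl36 (Ndufs6), Mrpl9 (Oaz3), Mrpl10 (Gm11574) and Mrpl49 (Syvn1).

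Copies of 3 of the genes have rows of their own as pseudogenes, and the authors' counting could split reads between a gene and its copy. Mrpl23-ps1 had 96, 91 and 140 reads in restraint libraries and 122, 112 and 74 reads in control libraries, and Mrps36-ps1 had 108, 89 and 99 in restraint and 126, 115 and 99 in control. Mrpl48-ps held between 4 and 9 reads in every library. The values of Mrpl23, Mrpl48 and Mrps36 are uncertain to that extent.

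The wider machinery of mitochondrial translation was read from lists of its known genes. The 5 subunits with other symbols, Dap3, Ptcd3, Chchd1, Aurkaip1 and Gadd45gip1, had log2 fold changes between -0.16 and 0.01, and none was called by edgeR, DESeq2 or voom or had an unadjusted edgeR p under 0.05. Of 34 assembly and ribosomal RNA modification genes 0 were called by edgeR, voom or DESeq2, with 0 higher and 4 lower at an unadjusted p under 0.05, 22 negative values and a median of -0.06. The lower share was 11.8%, against 7.63% of all features. Groups did not overlap for 6 of them, all lower, or 17.6% against 11.1% of all features. Mrm1, which methylates the large ribosomal RNA, had 4.61, 3.34 and 4.14 CPM in restraint and 6.72, 6.21 and 5.31 CPM in control, with -0.59 ± 0.17 and an edgeR adjusted p of 0.139. Mrm1 and the other genes named from these lists, apart from Ppargc1a and Tfam, were chosen after their values were seen.

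Of 17 mitochondrial translation factors 15 had negative values, with a median of -0.09, and edgeR and voom called 0, DESeq2 1. At an unadjusted edgeR p under 0.05, 0 stood higher and 4 lower (23.5%, against 7.63% of all features), and groups did not overlap for 5, all lower (29.4%, against 11.1%). Mtrf1l, a release factor that ends translation at stop codons, had 4.90, 4.84 and 4.77 CPM in restraint and 6.74, 7.11 and 6.92 CPM in control. Both groups were tight and apart, with -0.52 ± 0.12 and an edgeR adjusted p of 0.0839. Tufm, the elongation factor that brings transfer RNA to the ribosome, had 116, 114 and 106 CPM in restraint and 116, 110 and 116 CPM in control, with -0.02 ± 0.09. Of 22 aminoacyl transfer RNA synthetases and related genes 18 had negative values, with a median of -0.11, and edgeR, voom and DESeq2 called 0. At an unadjusted edgeR p under 0.05, 1 stood higher and 1 lower (4.55% each, against 7.98% and 7.63% of all features). Their groups did not overlap for 2 higher, Gars and Kars, and 4 lower (9.09% and 18.2%, against 10.6% and 11.1% of all features).

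Among 18 regulators of mitochondrial transcription and biogenesis edgeR and voom called 1, which was higher in restraint, and DESeq2 called 2 higher and 1 lower. Ppargc1a, a coactivator that drives mitochondrial biogenesis in muscle, had 58.4, 107 and 71.2 CPM in restraint and 24.6, 26.7 and 23.2 CPM in control, or 1.67 ± 0.21 on the log2 scale (edgeR adjusted p of 0.0116). No regulator was called without control 1 or without control 2, and 1 was called when any other single library was left out. Tfam, which packages and transcribes mitochondrial DNA, had 34.7, 26.7 and 32.3 CPM in restraint and 34.7, 34.6 and 37.2 CPM in control, with -0.18 ± 0.12 and an edgeR adjusted p of 0.513. Ppargc1b, a relative of Ppargc1a, had 6.83, 6.73 and 4.05 CPM in restraint and 10.9, 10.5 and 14.6 CPM in control, with -1.03 ± 0.22 and an edgeR adjusted p of 0.0602. The regulators as a list had 9 positive and 9 negative values.

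The other large gene families of translation and respiration give a scale. Of 85 cytosolic ribosomal protein genes 83 had a positive log2 fold change, with a median of 0.25. EdgeR, voom and DESeq2 called 0 of them, with 9 higher (10.6%, against 7.98% of all features) and 0 lower at an unadjusted edgeR p under 0.05. Their groups did not overlap for 12 higher (14.1%, against 10.6%) and 0 lower. The median stayed positive with each library left out, between 0.10 and 0.36, and their summed CPM were 18965, 17385 and 22100 in restraint and 17594, 18657 and 13372 in control, lowest in control 3. Of 80 nuclear subunits of the respiratory complexes 71 had a negative value, with a median of -0.11, and of 28 genes of mitochondrial DNA 23 did, with a median of -0.19, again with 0 calls by these tools and with 0 and 1 lower at an unadjusted edgeR p under 0.05. With each library left out, the median of the nuclear subunits stayed negative, from -0.25 without control 3 to -0.02 without control 2. That of the mitochondrial DNA genes ran from -0.37 without control 3 to 0.06 without control 2, and was positive only there. The mitochondrial ribosomal protein genes, with a median of -0.03, had values between those of the cytosolic ribosome and those of the respiratory chain, and the differences between the families were not tested.

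**Figure D5:**
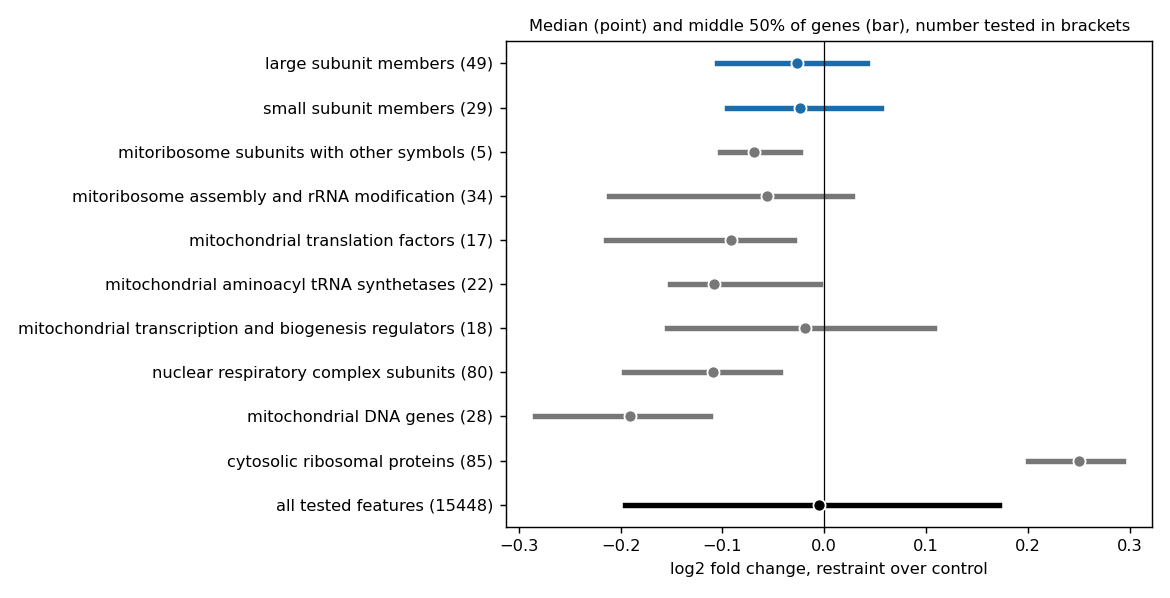
Median log2 fold change, restraint over control, of each gene list as a point with its quartiles as a line. The mitochondrial ribosomal protein genes lie near 0, the cytosolic ribosomal proteins at a median of 0.25 and the mitochondrial DNA genes at -0.19.

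The tissue carried the label's markers. In CPM of the library totals without TMM scaling, the 8 skeletal muscle fibre genes summed to 141610 to 150362 CPM in restraint and to 145225 to 150617 CPM in control. Macrophage markers summed to 59.3 to 188 CPM in restraint, highest in restraint 2, and to 50.5 to 65.7 CPM in control. These sums overlapped, with restraint 1 at 59.3 CPM below control 1 at 65.7 CPM. Of the 8 macrophage markers edgeR called 1 higher, where it called 1.26% of all features higher. The sums of endothelial, fibroblast and tendon, adipocyte, red blood cell, Schwann cell and slow fibre markers also overlapped between the groups. Lymphocyte markers reached at most 0.289 CPM, with Cd3g at 0 in every library. The part of the macrophage markers in the values of the set was not tested.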

How the data were processed

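The authors' deposited table holds 1 column per library of whole read counts, with FPKM and TPM beside them, per the file headers. The submitters' processing notes name StringTie 2.1.3b, HISAT2 2.1.0, Trimmomatic and bcl2fastq 2.20.0 and the build GRCm38, without saying what each did. The sources used here do not give whether counting used strand. The table's 825 unannotated loci have identifiers and were kept as features; an alternative leaves them out together with mitochondrial DNA genes.

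The test was edgeR 4.0.16 under R 4.3.3: filterByExpr (at least 10 counts and a total of 15), TMM, glmQLFit and glmQLFTest, two-sided, Benjamini-Hochberg over all tested features at 0.05. CPM are scaled by TMM. SE was obtained from the log2 fold change and the F statistic, and intervals use the test's degrees of freedom. Alternatives were other scalings and filters, DESeq2 1.42.0, limma 3.58.1 (voom, and on log2 of TPM plus 1 or 0.1 for features of at least 1 TPM in 3 libraries), feature sets, the replicate block, subunit by site, and each library left out. Names, coordinates and promoters are RefSeq's on GRCm38.p6; starts and overlaps are GENCODE M21's. The edgeR script was tested on simulated data. Replicate libraries differed by more than counting noise, with a chi-square of at least 28.3 per degree of freedom. Intervals cover counting error and the spread between libraries.

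The members and lists were chosen with earlier results of these data known. The text names any called gene, the 6 largest positive and negative fold changes, the 4 highest and 3 lowest levels per subunit and a panel: Mrpl12, Mrpl10, Mrpl45, Mrpl58, Mrps12, Mrps18a, Mrps18b, Mrps18c, Mrps30 and Mrps36. Other genes were chosen after their values were seen.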

Additional observations from a re-analysis of the deposited data

Results flagged for a closer look

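Mrps36-ps2, a pseudogene copy of Mrps36 that was too low to be tested, had 40 reads in restraint 3 and 1 read in each of the other 5 libraries. It was singled out as a signal outside the measured set that stood above the level of the control libraries, in 1 of the 3 restraint libraries.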

How the results depend on the processing

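Of 348 values of the 29 named genes under alternatives that keep all libraries, 320 kept their direction and their side of the threshold, 27 changed sign and 1 (Mrps18b by DESeq2, 0.41) passed the threshold. The sign changes were close to 0: for Mrpl30 and Mrpl58 the log2 values were 0.0079 and 0.0064 with DESeq2 size factors, 0.0098 and 0.0074 with library totals, 0.0021 and 0.00071 with no filter, 0.0079 and 0.0065 by DESeq2, 0.0099 and 0.0076 by voom, and Mrpl30 had 0.00035 without the 10 most abundant features. On log2(TPM + 1) and log2(TPM + 0.1) they were 0.012 and 0.012 for Mrpl12, 0.062 and 0.062 for Mrpl30, 0.017 and 0.017 for Mrpl33, 0.034 and 0.036 for Mrpl58, 0.030 and 0.030 for Mrps18a, 0.017 and 0.018 for Mrps2, and 0.015 and 0.015 for Mrps21. DESeq2 called 1 gene of the set and 809 features, and the TPM fits 122 and 112 features. The replicate block gave 0 genes of the set, 60 features, and 0.010 and 0.0038 for Mrpl30 and Mrpl58. Same-numbered libraries had correlations of deviations of 0.014, -0.20 and -0.21, and differently numbered ones ran from -0.023 to 0.22. The deviations within a group depend on each other, so these correlations cannot show whether a number marks a shared batch. The cause of the shifts between fits was not tested. With each library left out, calls ran from 16 (without control 1) to 350 (without restraint 1) over all features and stayed at 0 in the set, the median ran from -0.15 to 0.09 for large and from -0.09 to 0.09 for small subunit genes, and the ratio of summed CPM from 0.927 to 1.05. Genes that changed sign ran from -0.098 to 0.049 (Mrpl12), -0.16 to 0.11 (Mrpl30), -0.28 to 0.17 (Mrpl33), -0.11 to 0.089 (Mrpl58), -0.050 to 0.18 (Mrps10), -0.039 to 0.15 (Mrps12), -0.26 to 0.045 (Mrps15), -0.068 to 0.090 (Mrps18a), -0.23 to 0.036 (Mrps18c), -0.068 to 0.047 (Mrps2), -0.16 to 0.12 (Mrps21) and -0.23 to 0.026 (Mrps36). As to depth, every gene of the set had at least 371 reads in each library.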
